A study of Mus musculus with 34 samples.

Results

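Kidney tissue grown in a dish for 13 days was compared between 2 culture systems of the mouse: assembloids, which are aggregates built from expanded kidney progenitors and are called mKPA in the labels, and explants, which are whole kidneys taken from E12.5 embryos. The 2 libraries of day 13 (D13) assembloids, grown in stage-based medium v2, and the 2 libraries of D13 explants, grown in stage-based medium v1, were chosen by their sample titles and make 4 of the 34 libraries in the series. The deposited table holds 23331 genes, of which 19264 passed the filter on low values and were tested. All 4 cultures carried the Hoxb7-venus genotype, a reporter driven by the promoter of Hoxb7, a gene of the ureteric bud lineage. The rest of the series comprised 10 kidneys collected between E12.5 and postnatal day 45, explants in 10% FBS or stage-based media v0, v1 and v2, and assembloids in v2 from day 3 to day 19. At day 13 the culture system and the medium version changed together, so the share of each in any difference given here cannot be told apart. The labels do not say whether the 2 libraries of a group came from separate animals, lines or cultures, and the p-values measure only the spread between libraries.

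The kidney forms by exchange between the branching ureteric bud, which becomes the collecting duct, the cap mesenchyme of nephron progenitors around its tips, which becomes the nephron from podocyte to distal tubule, and the surrounding stroma. An explanted kidney rudiment also carries cells that arrive from outside these lineages, such as tissue macrophages of yolk sac and fetal liver origin, endothelial cells, and nerve fibres with their Schwann cells. The ureter attached to it is lined by urothelium, a layered epithelium that makes a barrier of uroplakin proteins.

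The values are TMM-normalized signals per gene, and all differences are given as assembloid minus v1 explant on the log2(signal + 0.962) scale. A gene was called where its Benjamini-Hochberg adjusted p in limma was under 0.05 and its log2 difference was at least 1 in size. Implied depth was 16836028 to 20744684 steps per D13 library, a step being the lowest value of a library, and mitochondrial genes took 4.27 to 5.00% of each library's signal. Log2 values of the paired libraries correlated at 0.994 in the assembloids and 0.990 in the explants, and neither pair lay within sampling noise. Explant 2 stood apart from explant 1 in genes of the sex chromosomes: Xist, the RNA that coats the inactive X chromosome, stood at 1315 in explant 1 and 0.319 in explant 2, against 2129 and 1988 in the assembloids. The Y-linked Ddx3y, picked out later, read at 0.0476 and 76.3 in explants 1 and 2 and at 6.63 and 5.43 in the assembloids. The 18S ribosomal RNA gene Rn18s-rs5 took 0.142 and 0.295% of the signal in the explants and 2.48 and 1.93% in the assembloids, and its part in other results was not tested.

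Defining genes of the renal lineages were present in all 4 libraries. Six2, the transcription factor that keeps nephron progenitors undifferentiated, stood at 158 and 161 in the assembloids and 148 and 131 in the explants. Nphs1, which encodes nephrin of the podocyte slit diaphragm, stood at 46.3 and 48.7 in the assembloids and 46.4 and 45.7 in the explants, Lrp2, the endocytic receptor megalin of the proximal tubule, at 37.5 and 28.4 in the assembloids and 27.1 and 25.1 in the explants, and Foxd1, a stromal progenitor factor, at 24.3 and 22.6 in the assembloids and 22 and 23 in the explants. None of these 4 genes was called. Col1a1, a fibrillar collagen of mesenchyme, and Pdgfrb, a receptor of stromal and pericyte lineages, were not called either, with log2 differences of -0.23 ± 0.22 (adjusted p = 0.495) and -0.23 ± 0.18 (adjusted p = 0.353). For every cell type, fewer cells of a type and less RNA per cell cannot be told apart in bulk samples.

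Of the 19264 genes tested, 306 (1.59%) were called higher and 1159 (6.02%) lower in the assembloids, so that genes lower in the assembloids outnumbered those higher. The median log2 difference over all tested genes was 0.02. Of the 1465 called genes, 1463 had no overlap between the libraries of the 2 groups. A lack of overlap in a called gene is therefore no separate support for its call. At an unadjusted p under 0.05 there were 7510 genes, and 1506 genes differed by at least 1 on the log2 scale whatever their p. Of the 15584 protein-coding genes tested, 229 were called higher and 1087 lower. Of 48 gene lists covering cell types and pathways, 39 held at least 1 called member. List counts are to be read beside the 1.59% higher and 6.02% lower of all genes tested. A single call is no result about a list. Lower members were the larger number in lists of macrophages, urothelium, endothelium, neurons, glia, the loop of Henle and intercalated cells, and higher members in lists of nephron progenitors, sterol synthesis and the ureteric tip.

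**Figure D1:**
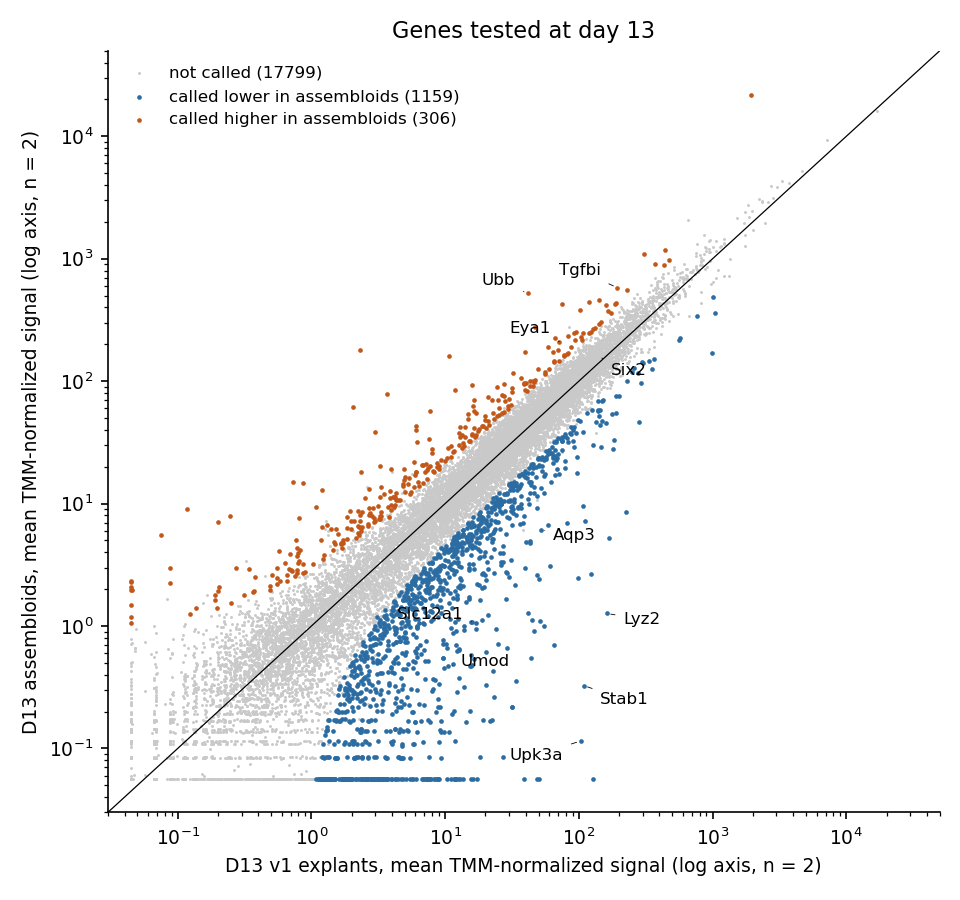
Mean TMM-normalized signal of each tested gene in D13 v1 explants (x axis, log scale) and D13 assembloids (y axis, log scale), 2 libraries each; coloured points mark called genes and the line marks equal means. The 1159 genes called lower spread far below the line, down to the lowest assembloid values for C1q genes and near them for Upk3a. The 306 genes called higher lie closer to the line.

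**Figure D2:**
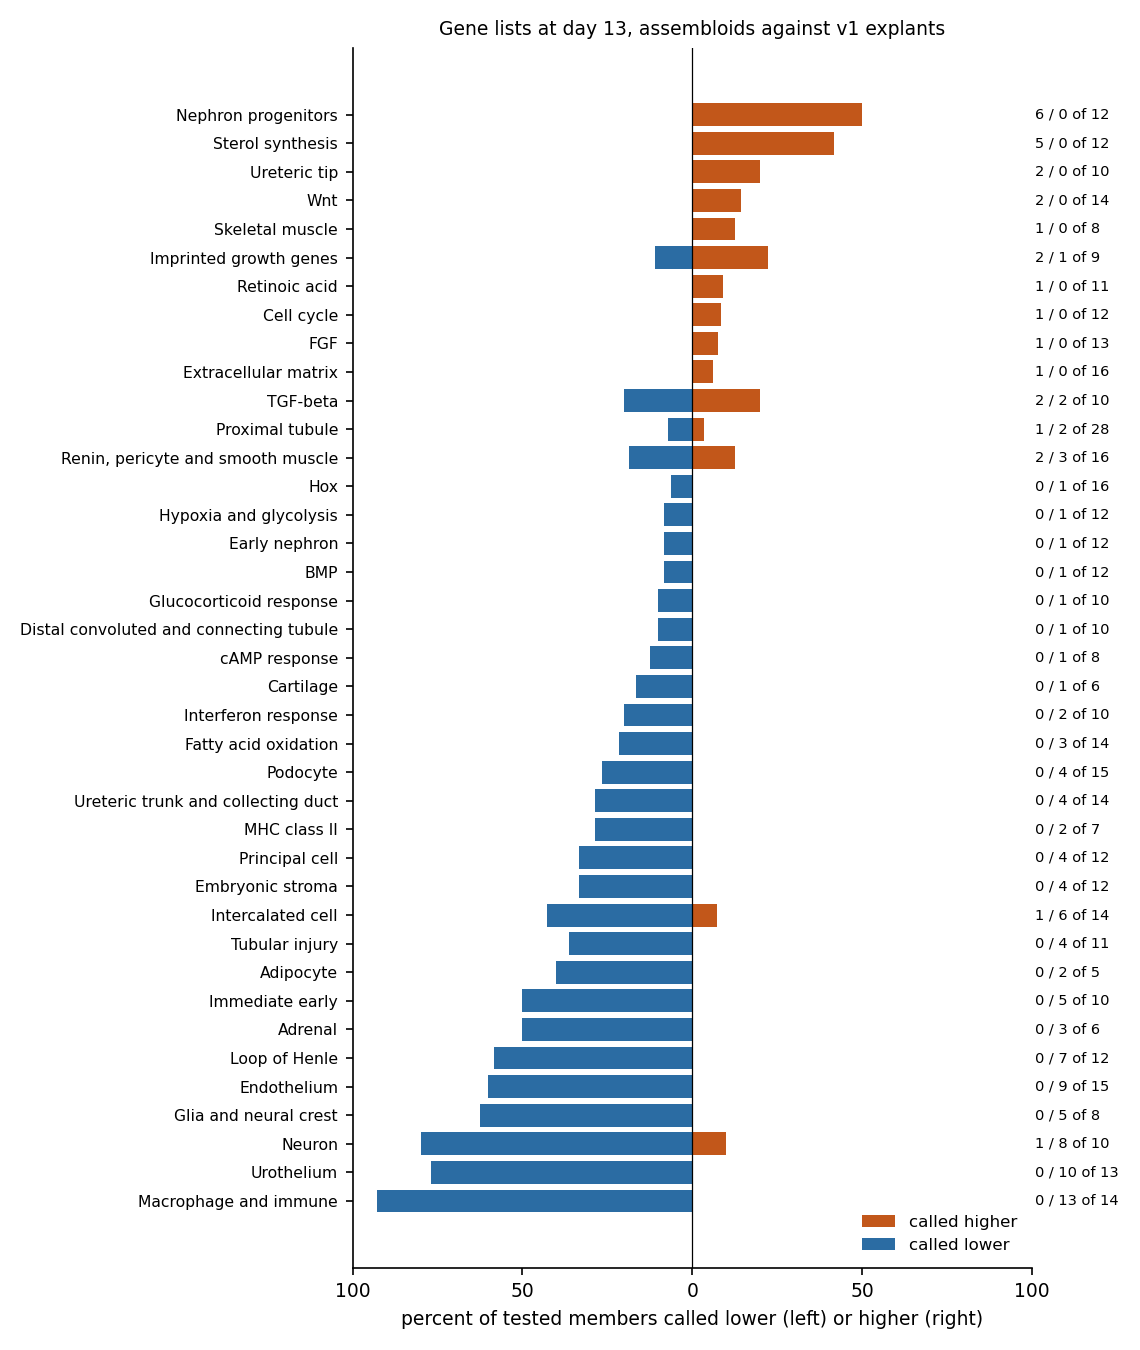
Share of each list's tested members called lower (bars to the left, percent) or higher (bars to the right, percent) in D13 assembloids against D13 v1 explants, with the counts higher / lower of tested at the right edge. The 39 lists with a called member are ordered from nephron progenitors, with 6 of 12 higher, to macrophage and immune genes, with 13 of 14 lower.

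Macrophage genes had the most negative median difference of the 48 lists. Of 14 tested members, 13 were called lower in the assembloids and 0 higher, with a median log2 difference of -4.23. Their summed signal was 21.2 and 22.6 in the assembloids and 522 and 542 in the explants. The promoters of C1qc, the C chain of complement C1q, which tissue macrophages make, and of Ctss, the lysosomal protease cathepsin S of antigen-presenting cells, are shown because both hold a match to the binding motif of PU.1, a myeloid transcription factor. Capitals mark the match, which is GAGGAAGT on the other strand. The sequences run 5′ to 3′ on the gene's strand from 250 bases before to 50 bases after the gene's start in RefSeq on GRCm38.p6, at chr4:136892865-136893164 (strand -) and chr3:95526536-95526835 (strand +).
C1qc promoter: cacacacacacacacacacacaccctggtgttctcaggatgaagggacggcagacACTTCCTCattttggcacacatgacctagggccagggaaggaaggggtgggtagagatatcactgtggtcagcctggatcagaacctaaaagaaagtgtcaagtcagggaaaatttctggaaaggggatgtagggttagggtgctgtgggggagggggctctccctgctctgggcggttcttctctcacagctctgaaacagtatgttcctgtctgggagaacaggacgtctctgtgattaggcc
Ctss promoter: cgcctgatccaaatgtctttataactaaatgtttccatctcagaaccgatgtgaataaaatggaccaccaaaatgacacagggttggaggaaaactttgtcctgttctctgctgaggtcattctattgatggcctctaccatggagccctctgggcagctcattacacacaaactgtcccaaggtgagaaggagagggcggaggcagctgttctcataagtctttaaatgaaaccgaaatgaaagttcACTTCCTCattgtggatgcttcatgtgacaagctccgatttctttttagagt
GAGGAAGT was searched on both strands, added after the values were seen, and was in the windows of 2 of the 9 called macrophage genes that had one, against 3.2% of 32851 promoters. The match describes letters in the window and no binding.

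C1qa, C1qb and C1qc lie next to each other on chromosome 4 (table coordinates, which fit mm39, from chr4:136607440-136613499 for C1qb to chr4:136623228-136626115 for C1qa). C1qc signal was 0.0535 and 0.059 in the assembloids and 49.4 and 48.4 in the explants, a log2 difference of -5.61 ± 0.20 (SE, adjusted p = 2.21e-17). The assembloid values are the lowest in those libraries, and against a floor of 3 steps per library C1qc was at least 289.7-fold lower, C1qa at least 298-fold lower and C1qb at least 232-fold lower. Lyz2, the lysozyme of myeloid cells, stood at 1.18 and 1.36 in the assembloids and 148 and 175 in the explants, a log2 difference of -6.18 ± 0.34 (SE, adjusted p = 2.93e-11). Csf1r, the receptor for the growth factor on which macrophages depend, stood at 1.31 and 0.934 in the assembloids and 43.3 and 45.8 in the explants, a log2 difference of -4.45 ± 0.18 (SE, adjusted p = 1.21e-16). Both explants lay far above both assembloids for each of these genes. Mrc1, the mannose receptor of resident macrophages, and Cx3cr1, a chemokine receptor, differed by -4.74 ± 0.22 (adjusted p = 3e-15) and -4.01 ± 0.30 (adjusted p = 7.62e-11), and Cx3cr1, at the lowest value in both assembloids, was at least 92-fold lower against the floor. Ptprc, which encodes the pan-leukocyte antigen CD45, was the exception, at 13.1 and 12.9 in the assembloids and 16.3 and 15 in the explants, a log2 difference of -0.25 ± 0.22 (SE, adjusted p = 0.446). Stab1, a scavenger receptor of macrophages and sinusoidal endothelium, stood at 0.535 and 0.118 in the assembloids and 111 and 106 in the explants, a log2 difference of -6.43 ± 0.19 (SE, adjusted p = 2.14e-19). Gpnmb, a glycoprotein of lysosome-rich macrophages and pigment cells, differed by -4.84 ± 0.40 (adjusted p = 1.52e-08). Among 7 tested MHC class II genes, 2 were called lower, H2-Eb1 (-1.20) and H2-Aa (-1.09), neither of them called without explant 1 or without assembloid 1, and Rsad2 and Bst2 were the 2 called lower among 10 interferon-response genes. Bst2 was not called without explant 2 (-0.77) or without assembloid 1 (-0.87). Of 8 complement genes outside C1q, 0 were called in limma and 3 had an unadjusted p under 0.05. C3, the central complement component, stood at 12.9 and 18.6 in the assembloids and 28.5 and 23.3 in the explants, a log2 difference of -0.70 ± 0.37 (SE, adjusted p = 0.166).

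Endothelial genes were lower as well, with 9 of 15 tested members called lower, 0 higher and a median log2 difference of -1.32. Pecam1, the adhesion molecule CD31 of endothelial junctions, stood at 0.214 and 0.118 in the assembloids and 5.14 and 5.34 in the explants, a log2 difference of -2.46 ± 0.33 (SE, adjusted p = 3.62e-06). Tie1, an endothelial receptor kinase, stood at 0.481 and 0.177 in the assembloids and 3.76 and 5.98 in the explants, a log2 difference of -2.16 ± 0.25 (SE, adjusted p = 2.87e-07), and the explant range lay above the assembloid range for both genes. Kdr, the VEGF receptor, and Cdh5, the endothelial cadherin, were still at 5.72 and 5.2 in the assembloids and 11.2 and 13.1 in the explants and at 8.61 and 11.4 in the assembloids and 28.8 and 23.9 in the explants respectively, with log2 differences of -1.03 ± 0.16 (adjusted p = 3.02e-05) and -1.32 ± 0.31 (adjusted p = 0.00249). Kdr was not called without explant 2 (-0.93) or without assembloid 2 (-0.97). The explants themselves held little Pecam1 signal by day 13, at 5.14 and 5.34 against 85.1 and 69.6 in the D3 v1 explants. Of 9 erythroid genes, 0 were called in limma and 0 had an unadjusted p under 0.05, and the globin gene Hba-a1 stood at 0.0535 and 0.059 in the assembloids and 0.0476 and 0.17 in the explants.

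The urothelial list had 10 of 13 tested members called lower, 0 higher and a median log2 difference of -1.64. Upk3a (table coordinates chr15:84901342-84906749, mm39), a uroplakin of the superficial urothelial layer, had the most negative difference of any gene named: its signal was 0.0535 and 0.177 in the assembloids and 116 and 89.4 in the explants, a log2 difference of -6.58 ± 0.36 (SE, adjusted p = 1.7e-12). Upk1b, a second uroplakin, stood at 0.107 and 0.236 in the assembloids and 25.3 and 19.1 in the explants, a log2 difference of -4.34 ± 0.38 (SE, adjusted p = 7.85e-09). Shh, the hedgehog ligand of ureteric epithelium, and Foxa1, a transcription factor of urothelium, stood at 0.855 and 2.48 in the assembloids and 28 and 29 in the explants and at 4.76 and 8.56 in the assembloids and 59.6 and 57.5 in the explants, with log2 differences of -3.56 ± 0.38 (adjusted p = 1.77e-07) and -3.01 ± 0.34 (adjusted p = 4.24e-07). In all 4 genes both explants were above both assembloids. Among basal-layer markers Krt15, a keratin, was called lower (-1.01), at 0.802 and 0.354 in the assembloids and 1.81 and 2.46 in the explants. Krt15 was not called without explant 2 (-0.86) or without assembloid 2 (-0.80). Krt5, Krt14 and Trp63 were not called, with log2 differences of -0.16, 0.02 and -0.47.

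Other genes of differentiated surface epithelium were among the largest differences outside the lists. Ctse, the protease cathepsin E, stood at 2.03 and 3.25 in the assembloids and 135 and 109.6 in the explants, a log2 difference of -5.11 ± 0.24 (SE, adjusted p = 1.13e-14). Sprr1a and Sprr2f, small proline-rich proteins of the cornified envelope, differed by -4.59 ± 0.37 (adjusted p = 2.15e-08) and -3.46 ± 0.26 (adjusted p = 1.4e-10), and the gasdermin genes Gsdmc2 and Gsdmc3 by -3.30 ± 0.30 (adjusted p = 8.61e-09) and -3.43 ± 0.49 (adjusted p = 2.38e-05). Gsdmc2 and Gsdmc3 are close paralogs, as are the Sprr2 genes, and reads could be split between copies. Of 14 ureteric trunk and collecting duct genes, 4 were called lower and 0 higher, namely the simple-epithelium keratins Krt19 and Krt7, the ligand gene Wnt7b and the membrane proteolipid gene Mal. Krt19 stood at 19.5 and 36.5 in the assembloids and 173 and 188 in the explants, a log2 difference of -2.71 ± 0.30 (SE, adjusted p = 1.59e-06). The count was 7 of 14 without assembloid 2, and also 7 of 14 with equal column totals or quantile normalization. Hoxb7 itself, whose promoter drives the reporter, was not called, at 51.4 and 46.5 in the assembloids and 51.9 and 61.4 in the explants, a log2 difference of -0.20 ± 0.13 (SE, adjusted p = 0.265).

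Neuronal genes were lower in the assembloids, but the 2 explants differed among themselves. Of 10 tested neuronal genes, 8 were called lower and 1 higher, with a median of -2.97. Nefl, the light neurofilament, stood at 1.34 and 0.654 in the assembloids and 29.4 and 80 in the explants, a log2 difference of -4.68 ± 0.80 (SE, adjusted p = 0.000247). Tubb3, the neuronal tubulin, stood at 0.374 and 0.059 in the assembloids and 16.8 and 46.1 in the explants, a log2 difference of -4.63 ± 1.00 (SE, adjusted p = 0.00178). Explant 2 lay above explant 1, and both lay above the assembloids. Prph, the neurofilament peripherin of peripheral neurons, stood at 0.909 and 0.177 in the assembloids and 25.1 and 63.1 in the explants, a log2 difference of -4.81 ± 1.02 (SE, adjusted p = 0.00158). Elavl4, an RNA-binding protein gene of neurons, went the other way, at 28.9 and 27.6 in the assembloids and 10.2 and 16.7 in the explants, a log2 difference of 1.06 ± 0.38 (SE, adjusted p = 0.0364). Elavl4 was not called without explant 1 (0.73), without assembloid 1 (1.03, adjusted p = 0.141) or without assembloid 2 (1.09, adjusted p = 0.107). Without explant 2, 5 of 10 neuronal genes were called lower.

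Glial genes followed the same order of libraries, with 5 of 8 called lower and 0 higher. Sox10, the transcription factor of neural crest and Schwann cells, stood at 0.0535 and 0.059 in the assembloids and 2.14 and 14.7 in the explants, a log2 difference of -2.78 ± 0.68 (SE, adjusted p = 0.00431), which is at least 49.9-fold lower against the floor and at least 12.7-fold without explant 2. Sox10 was not called without explant 2 (-1.61, adjusted p = 0.12). Without explant 2 only 1 glial gene was called lower. Of 6 tested adrenal genes, 3 were called lower: Hsd3b1, a steroid-making enzyme of the adrenal cortex, stood at 0.0535 and 0.059 in the assembloids and 0.0953 and 23.8 in the explants, and the chromaffin genes Chga and Dbh stood at 0.107 and 0.354 in the assembloids and 1.62 and 11.1 in the explants and at 0.0535 and 0.059 in the assembloids and 1.05 and 6.14 in the explants. The Hsd3b1 signal was therefore in explant 2, with explant 1 at or below the floor of 3 steps, and without explant 2 the adrenal count was 1 of 6. Hsd3b1 was not called without explant 2 (-0.05), without assembloid 1 (-2.32, adjusted p = 0.145) or without assembloid 2 (-2.33, adjusted p = 0.132). Dbh was not called without explant 2 (-0.98). Whether adjoining tissue was carried along with an explant was not tested.

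**Figure D3:**
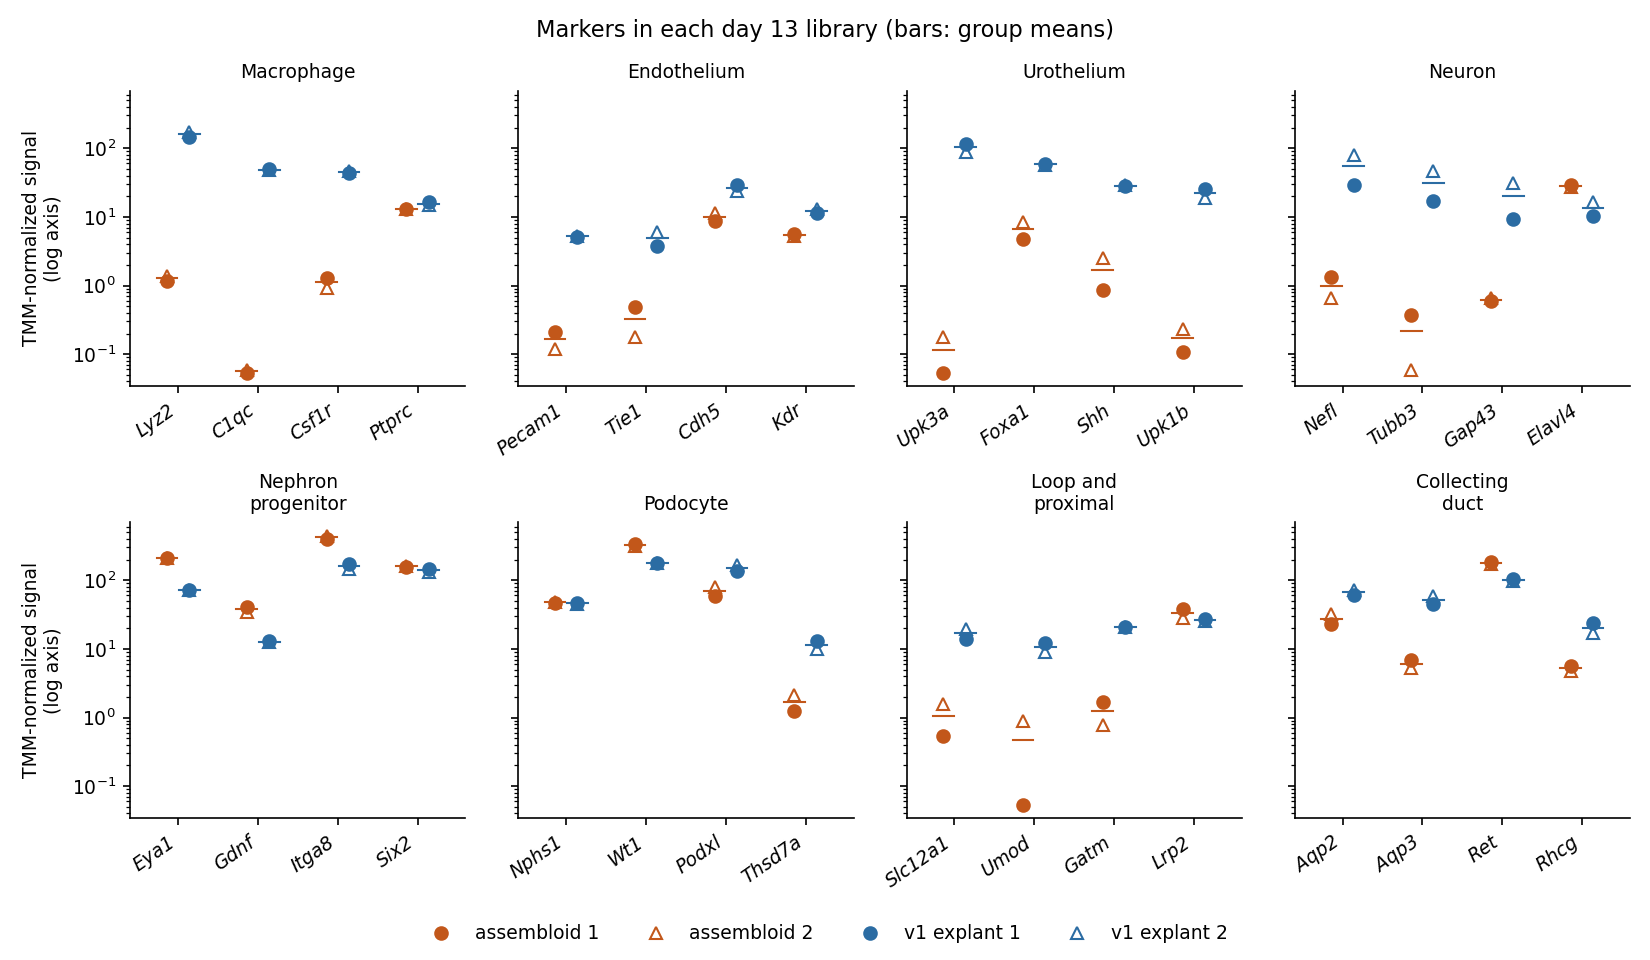
TMM-normalized signal (y axis, log scale) of 32 marker genes in each D13 library, grouped by cell type; circles are library 1, open triangles library 2, orange assembloids, blue v1 explants, and short bars group means. Lyz2, C1qc, Csf1r, Pecam1, Tie1, Upk3a and Upk1b separate the systems by over 1 power of 10 while Six2, Nphs1, Lrp2 and Ptprc lie close together, and the neuronal markers of explant 2 lie above those of explant 1.

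Nephron progenitor genes were higher in the assembloids. Of 12 tested members, 6 were called higher and 0 lower, with a median log2 difference of 0.98. Eya1, the phosphatase and coactivator that acts with Six2, stood at 212 and 209 in the assembloids and 71.7 and 70.9 in the explants, a log2 difference of 1.55 ± 0.24 (SE, adjusted p = 5.54e-05). Gdnf, the ligand by which the cap mesenchyme draws out the ureteric bud, stood at 41.1 and 34 in the assembloids and 12.8 and 12.4 in the explants, a log2 difference of 1.50 ± 0.24 (SE, adjusted p = 2.47e-05). Itga8, an integrin of the cap mesenchyme that takes part in inducing Gdnf, stood at 398 and 442 in the assembloids and 174 and 146 in the explants, a log2 difference of 1.39 ± 0.18 (SE, adjusted p = 2.16e-06). The groups did not overlap for any of these genes. Meox1, Meox2 and Osr1, transcription factor genes of the metanephric mesenchyme, were called higher too, with log2 differences of 1.27, 1.43 and 1.06. Osr1 was not called without explant 2 (0.90). The 2 best-known members were not called: Six2 differed by 0.20 ± 0.25 (adjusted p = 0.614) and Cited1, a marker of the least committed progenitors, by -0.04 ± 0.34 (adjusted p = 0.964).

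The receptor side of the Gdnf loop was less clear. Ret, the Gdnf receptor of the ureteric tip, stood at 184 and 172 in the assembloids and 104 and 98 in the explants, a log2 difference of 0.81 ± 0.22 (SE, adjusted p = 0.00555), which passed the p threshold but not the size of 1. Of 10 tip genes, 2 were called higher and 0 lower, among them Slco4c1, an organic anion transporter (1.41). Etv4 and Etv5, transcription factors that act downstream of Ret, differed by 0.95 ± 0.21 (adjusted p = 0.00119) and 0.81 ± 0.13 (adjusted p = 2.96e-05). Among early nephron genes 1 of 12 was called, and it was lower, beside 6.02% of all genes tested. Wnt4, the signal that turns induced mesenchyme into epithelium, was this gene. It stood at 149 and 135 in the assembloids and 313 and 285 in the explants, a log2 difference of -1.07 ± 0.20 (SE, adjusted p = 0.000285). Mki67, the proliferation antigen Ki-67, was the 1 of 12 cell cycle genes called higher, at 297 and 234 in the assembloids and 132 and 125 in the explants, a log2 difference of 1.04 ± 0.13 (SE, adjusted p = 6.43e-07). The other 11 had positive differences below 1, and the list's median was 0.60. Mki67 was not called without explant 2 (0.998) or without assembloid 1 (0.87).

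Podocyte genes split within the list, with 4 of 15 called lower and 0 higher. Nphs1 was not among them and differed by 0.04 ± 0.23 (adjusted p = 0.931). Thsd7a, a podocyte foot process protein, stood at 1.23 and 2.13 in the assembloids and 13.1 and 9.83 in the explants, a log2 difference of -2.25 ± 0.21 (SE, adjusted p = 8.02e-09), and Podxl, the sialoprotein of the podocyte surface, at 59.1 and 80.1 in the assembloids and 138 and 164 in the explants, a log2 difference of -1.12 ± 0.32 (SE, adjusted p = 0.0115). Both explants lay above both assembloids for Thsd7a and Podxl. Podxl was not called without explant 2 (-0.997) or without assembloid 1 (-0.90). Wt1, a transcription factor of both progenitors and podocytes, was at 335 and 311 in the assembloids and 178 and 181 in the explants, a log2 difference of 0.84 ± 0.11 (SE, adjusted p = 9.41e-07), below the size of 1.

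Loop of Henle genes were the nephron segment with the most calls, with 7 of 12 called lower, 0 higher and a median log2 difference of -1.60. Their summed signal was 18.98 and 26.5 in the assembloids and 92.1 and 98.4 in the explants. The promoter of Umod, which encodes uromodulin, the main protein of normal urine, is shown because it holds the core site of HNF1, the hepatocyte nuclear factor family that acts in nephron epithelium. Capitals mark GTTAAT, and the window lies at chr7:119479213-119479512 (strand -) in RefSeq on GRCm38.p6, again from 250 bases before to 50 after the start.
Umod promoter: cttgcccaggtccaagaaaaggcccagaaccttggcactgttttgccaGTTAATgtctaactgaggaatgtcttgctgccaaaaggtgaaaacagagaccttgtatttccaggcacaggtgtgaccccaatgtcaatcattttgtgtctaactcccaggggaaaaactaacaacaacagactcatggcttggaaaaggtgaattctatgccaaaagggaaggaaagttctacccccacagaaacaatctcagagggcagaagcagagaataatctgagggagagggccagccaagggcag
GTTAAT, searched on both strands, was in 1 of the 4 called loop genes with a window and in 7.1% of all 32851 promoters. No window of the called loop genes held the full HNF1 motif, which is GTTAAT, any base and the reverse complement of GTTAAT, and which was in 0.00913% of promoters.

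Umod signal was 0.0535 and 0.886 in the assembloids and 12.2 and 8.86 in the explants, a log2 difference of -3.06 ± 0.27 (SE, adjusted p = 3.17e-09). Slc12a1, the sodium-potassium-chloride cotransporter NKCC2 of the thick ascending limb, stood at 0.535 and 1.59 in the assembloids and 14 and 19.8 in the explants, a log2 difference of -3.17 ± 0.48 (SE, adjusted p = 8.01e-05). Both explants lay above both assembloids in each case. Bsnd, which encodes the chloride channel subunit barttin, and Kcnj1, the potassium channel ROMK, differed by -1.48 ± 0.23 (adjusted p = 1.62e-05) and -1.93 ± 0.30 (adjusted p = 2.44e-05). Irx1, a transcription factor of intermediate segments, differed by -1.82 ± 0.48 (adjusted p = 0.0067) and stood at 5.86 and 14.7 in the 2 explants. Irx1 was not called without explant 2 (-1.22, adjusted p = 0.135) or without assembloid 1 (-1.72, adjusted p = 0.0546).

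Proximal tubule genes, in contrast, gave 1 of 28 called higher and 2 lower, with a median of -0.21. These counts lie near the 1.59% higher and 6.02% lower of all genes tested. Gatm, the first enzyme of creatine synthesis, stood at 1.71 and 0.768 in the assembloids and 21 and 21.1 in the explants, a log2 difference of -3.36 ± 0.21 (SE, adjusted p = 2.45e-12), and Ass1, the argininosuccinate synthase of arginine production, at 9.47 and 11.7 in the assembloids and 27.2 and 28.3 in the explants, a log2 difference of -1.32 ± 0.21 (SE, adjusted p = 2.75e-05). Kap, an androgen-regulated kidney protein of mouse, was the member called higher, at 2.46 and 3.54 in the assembloids and 0.0476 and 0.127 in the explants, a log2 difference of 1.90 ± 0.32 (SE, adjusted p = 5.91e-05). Slc34a1, the phosphate transporter of the proximal brush border, was not called, at 9.57 and 6.49 in the assembloids and 11.4 and 9.32 in the explants, a log2 difference of -0.35 ± 0.26 (SE, adjusted p = 0.349). In the distal convoluted and connecting tubule list 1 of 10 was called lower, Tmem52b, a transmembrane protein gene (-1.72). Slc12a3, the thiazide-sensitive cotransporter, was near the bottom of the range in all 4 libraries, at 0.0535 and 0.177 in the assembloids and 0.476 and 0.636 in the explants.

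In the collecting duct, 4 of 12 principal cell genes were called lower and 0 higher. Aqp3, the basolateral water and glycerol channel, stood at 6.9 and 5.31 in the assembloids and 44.8 and 58.6 in the explants, a log2 difference of -2.89 ± 0.25 (SE, adjusted p = 1.08e-08). Aqp2, the vasopressin-regulated apical water channel, stood at 23.3 and 31.8 in the assembloids and 61.8 and 71.1 in the explants, a log2 difference of -1.25 ± 0.27 (SE, adjusted p = 0.00123). Aqp4, a second basolateral water channel, and Scnn1g, a subunit of the epithelial sodium channel, differed by -2.71 ± 0.26 (adjusted p = 1.07e-08) and -1.04 ± 0.13 (adjusted p = 1.15e-06). Scnn1g was not called without assembloid 2 (-0.95). Of 14 intercalated cell genes, 6 were called lower and 1 higher. Car2, the carbonic anhydrase that feeds acid secretion, stood at 14.4 and 19.5 in the assembloids and 71.3 and 62 in the explants, a log2 difference of -1.93 ± 0.19 (SE, adjusted p = 4.2e-08), and Rhcg, an ammonia transporter, at 5.67 and 4.72 in the assembloids and 24 and 16.9 in the explants, a log2 difference of -1.78 ± 0.23 (SE, adjusted p = 1.49e-06). Slc4a9, an anion exchanger of the cells that secrete bicarbonate, stood at 1.98 and 0.827 in the assembloids and 6.33 and 7.25 in the explants, a log2 difference of -1.75 ± 0.38 (SE, adjusted p = 0.00111). Both explants were above both assembloids for these 3 genes. Insrr, the alkali-sensing receptor related to the insulin receptor, was the member called higher, at 5.29 and 7.2 in the assembloids and 1.38 and 1.7 in the explants, a log2 difference of 1.52 ± 0.25 (SE, adjusted p = 3.59e-05).

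Stromal genes moved in both directions. Among 12 embryonic stroma genes 4 were called lower and 0 higher: Dlk1, a non-canonical Notch ligand, stood at 49.4 and 61.2 in the assembloids and 169 and 212 in the explants, a log2 difference of -1.77 ± 0.32 (SE, adjusted p = 0.000312), and Tbx18, a factor of the ureteric mesenchyme, at 4.54 and 6.37 in the assembloids and 17.3 and 15.2 in the explants, a log2 difference of -1.44 ± 0.34 (SE, adjusted p = 0.00268). Among 16 genes of renin cells, pericytes and smooth muscle, 2 were called higher and 3 lower. Myh11, the smooth muscle myosin, stood at 37.7 and 50.7 in the assembloids and 155 and 134 in the explants, a log2 difference of -1.70 ± 0.30 (SE, adjusted p = 0.000279), whereas Des, the intermediate filament desmin, stood at 106 and 146 in the assembloids and 51.9 and 46.6 in the explants, a log2 difference of 1.32 ± 0.22 (SE, adjusted p = 6.19e-05). The groups did not overlap for either gene, and the order was opposite. Ren1, which encodes renin, was under 1 in all 4 libraries, at 0.748 and 0.295 in the assembloids and 0.381 and 0.339 in the explants. Of 16 matrix genes, Tnc, the matricellular protein tenascin C, was the 1 called, at 95.7 and 97.6 in the assembloids and 40.1 and 38.1 in the explants, a log2 difference of 1.28 ± 0.24 (SE, adjusted p = 0.000406). In the TGF-beta list of 10 genes, Tgfbi, a secreted matrix protein induced by the pathway, stood at 525 and 637 in the assembloids and 201 and 186 in the explants, a log2 difference of 1.57 ± 0.18 (SE, adjusted p = 3.64e-07), and Ltbp2, a microfibril-associated protein, was higher too (1.09), while the ligand gene Tgfb1 was lower (-1.01). Ltbp2 was not called without explant 1 (0.89) or without assembloid 1 (0.93). Tgfb1 was not called without explant 1 (-0.99) or without assembloid 1 (-0.90).

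Of the metabolic lists, sterol synthesis had the most calls, with 5 of 12 called higher and 0 lower. Insig1, the sterol-sensing anchor that is itself induced when sterols are low, stood at 262 and 231 in the assembloids and 89.6 and 94.8 in the explants, a log2 difference of 1.41 ± 0.16 (SE, adjusted p = 1.93e-07). Both assembloids lay above both explants, and the other 11 members had positive differences too. The differences lay close to the size of 1: the count was 2 of 12 with equal column totals, 3 of 12 with quantile normalization and 3 of 12 without assembloid 1. Of 7 fatty acid synthesis genes 0 were called in limma and 6 had an unadjusted p under 0.05. Acly, which supplies cytosolic acetyl-CoA, passed the p threshold at 0.58 ± 0.09 (adjusted p = 3.05e-05). Fatty acid oxidation genes gave 3 of 14 called lower and 0 higher. Of 21 respiratory chain genes, nuclear and mitochondrial, 0 were called in limma and 7 had an unadjusted p under 0.05.

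Among immediate early genes, which respond to growth factors, handling and stress within minutes, 5 of 10 were called lower and 0 higher. Fos stood at 5.29 and 2.3 in the assembloids and 14 and 17.2 in the explants, a log2 difference of -1.87 ± 0.31 (SE, adjusted p = 5.47e-05), and Junb at 27 and 23.5 in the assembloids and 67.1 and 73 in the explants, a log2 difference of -1.44 ± 0.21 (SE, adjusted p = 1.22e-05). Explants lay above assembloids in both. Egr1 and Jun, transcription factors of the same class, were not called, at -0.36 ± 0.23 (adjusted p = 0.275) and -0.58 ± 0.11 (adjusted p = 0.000231). Of 11 tubular injury genes 4 were called lower and 0 higher, 2 of 11 without explant 1 and 2 of 11 without assembloid 1. Cdkn1a, the cell cycle inhibitor p21, stood at 48.4 and 67.5 in the assembloids and 147 and 131 in the explants, a log2 difference of -1.26 ± 0.14 (SE, adjusted p = 1.82e-07), whereas Havcr1, the injury molecule KIM-1, was not called, at -0.10 ± 0.26 (adjusted p = 0.827). Signalling lists had few calls, to be read beside the 1.59% higher and 6.02% lower of all genes tested. Fgf9, a ligand that maintains nephron progenitors, was the 1 of 13 FGF genes called higher (1.12), Sp5 and Wif1, a target and an inhibitor of Wnt signalling, were the 2 of 14 called higher (1.09 and 1.56), and the ligand gene Bmp2 was the 1 of 12 BMP genes called lower (-1.79). Aldh1a1, a retinaldehyde dehydrogenase, was called higher (1.42), the 1 call among 11 retinoic acid genes. Fgf9 was not called without assembloid 2 (0.99). Aldh1a1 was not called without explant 1 (1.50, adjusted p = 0.0533), without explant 2 (1.34, adjusted p = 0.0954), without assembloid 1 (1.34, adjusted p = 0.09) or without assembloid 2 (1.50, adjusted p = 0.052).

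Hox genes give a cell its position along the body axis. Of 16 Hox genes, 15 were not called, and Hoxa13, the paralog of the most distal urogenital tract, was at the lowest value in both assembloids and at 1.76 and 0.805 in the explants, at least 7.61-fold lower against the floor and at least 4.77-fold without explant 1. Hoxa13 was not called without explant 1 (-0.80), without assembloid 1 (-1.10, adjusted p = 0.0711) or without assembloid 2 (-1.11, adjusted p = 0.0619). Of 9 imprinted growth genes, Mest and Grb10 were called higher. Grb10 was not called without explant 2 (0.98). Mest, a paternally expressed hydrolase gene, stood at 1162 and 1182 in the assembloids and 471 and 411 in the explants, a log2 difference of 1.41 ± 0.22 (SE, adjusted p = 5.82e-05). Meg3, a maternally expressed non-coding RNA of the same imprinted domain as Dlk1, was lower, at 30.2 and 36.4 in the assembloids and 139.6 and 224 in the explants, a log2 difference of -2.38 ± 0.24 (SE, adjusted p = 3.16e-07). Meg3 and Dlk1, which are expressed from opposite parental copies, were both lower.

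Among the largest positive differences of single genes, Cp, the copper-binding ferroxidase ceruloplasmin, stood at 36.2 and 49.8 in the assembloids and 5.14 and 6.95 in the explants, a log2 difference of 2.64 ± 0.26 (SE, adjusted p = 1.16e-08). Dpep1, a dipeptidase of the renal brush border, stood at 28 and 39.9 in the assembloids and 6.33 and 8.69 in the explants, a log2 difference of 2.03 ± 0.22 (SE, adjusted p = 6.22e-08), Cdhr1, a cadherin-related gene, at 25 and 15.4 in the assembloids and 3.81 and 2.71 in the explants, a log2 difference of 2.30 ± 0.41 (SE, adjusted p = 0.000135), and Tafa2, a secreted chemokine-like protein, at 32.9 and 30.2 in the assembloids and 5.72 and 6.57 in the explants, a log2 difference of 2.20 ± 0.32 (SE, adjusted p = 1.18e-05). Assembloids lay above explants for these 4 genes. Some other large positive values varied widely between libraries of one group or came from abundant non-coding RNAs, and are uncertain. Ubb, a polyubiquitin gene, stood at 520.4 and 520.4 in the assembloids and 38.5 and 44.5 in the explants, a log2 difference of 3.62 ± 0.84 (SE, adjusted p = 0.00324), but at 34.7 and 473 in the 2 D7 v1 explants and at 451 and 438 in the D19 v1 explants. Rn18s-rs5, Rn7s1 and Rn7sk, genes of abundant non-coding RNAs, differed by 3.56, 3.08 and 2.47. Rn7s1 was not called without explant 1 (3.56, adjusted p = 0.07), without explant 2 (2.60, adjusted p = 0.215), without assembloid 1 (2.53, adjusted p = 0.218) or without assembloid 2 (3.64, adjusted p = 0.0627). Rn7sk was not called without explant 1 (2.41, adjusted p = 0.0517) or without assembloid 1 (2.09, adjusted p = 0.0915). Ahcy, the S-adenosylhomocysteine hydrolase, stood at 68.8 and 71.2 in the assembloids and 31.1 and 1.62 in the explants. Ahcy was not called without explant 2 (1.15, adjusted p = 0.305), without assembloid 1 (2.99, adjusted p = 0.0586) or without assembloid 2 (2.94, adjusted p = 0.0556). Libraries of a group lay close together at D13 for the next 3 genes. Close libraries at 1 day do not show that a value is stable, since Rps18, given below, changed widely between days. Hmgn2, a nucleosome-binding protein, stood at 290.0 and 264 in the assembloids and 49.4 and 44 in the explants, a log2 difference of 2.55 ± 0.13 (SE, adjusted p = 5.76e-14). Pcdhb9, of a clustered protocadherin family, differed by 2.76, 2.15 and 2.92 at D13, D7 and D19. AI506816 stood at 78.2 and 80.1 in the assembloids and 4.05 and 3.27 in the explants, a log2 difference of 4.12. Of 94 genes with ribosomal protein symbols, a group looked at after the values were seen, 11 were called higher and 1 lower. These are 11.7 and 1.06%, beside 1.59 and 6.02% of all genes tested. Values of some members were erratic. Rpl29 stood at 149 and 1.61 in the D13 explants. Rpl26 stood at 2.06 and 2.60 in the D13 explants and 136 and 138.5 in the D7 v1 explants. Rps18 stood at 8.83 and 12.7 in the D13 explants and 171 and 198 in the D7 v1 explants. The count is therefore uncertain.

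Large negative differences outside the lists included Trf, the iron carrier transferrin, at 0.641 and 0.768 in the assembloids and 44.5 and 87 in the explants, a log2 difference of -5.25 ± 0.29 (SE, adjusted p = 1.02e-12). Cym, which encodes the milk-clotting protease chymosin, stood at 0.0535 and 0.059 in the assembloids and 243 and 14.4 in the explants, a log2 difference of -5.91 ± 0.73 (SE, adjusted p = 6.87e-06), at least 762-fold lower against the floor and at least 85.1-fold without explant 1, with explant 1 far above explant 2. In the D7 and D19 v1 explants it was below 1, at 0.236 and 0.317 and 0.0723 and 0.259. Cym was not called when only the 4 D13 libraries were fitted. Iqsec3, an exchange factor of inhibitory synapses, stood at 0.321 and 0.118 in the assembloids and 10.1 and 53.6 in the explants, a log2 difference of -4.38 ± 0.55 (SE, adjusted p = 4.42e-06), again with explant 2 above explant 1.

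The same pair of systems and media was sampled at day 7, and at day 19 assembloids could be set against explants grown in the same v2 medium. These comparisons share no sample with D13. The 2 D19 v2 explants differed in implied depth, at 28459391 and 7772347 steps, the latter the lowest of the series. Xist stood at 0.164 and 854 in them, and Ddx3y at 113 and 2.50. Both D7 v1 explants read low for Xist, at 0.142 and 0.370, and high for Ddx3y, at 84.8 and 81.0, unlike explant 1 of D13. The part of these readings in changes between the days was not tested. Rn18s-rs5 took 0.260 and 0.197% of the signal in the D7 v1 explants and 2.25 and 1.97% in the D7 assembloids. The systems therefore differed in this share at D7 as at D13. Its part in the calls that D7 and D13 have in common was not tested. Day 7 assembloids had 341 genes (1.77%) higher and 806 (4.18%) lower than day 7 v1 explants, and day 19 assembloids had 414 (2.15%) higher and 634 (3.29%) lower than day 19 v2 explants. Of the 306 genes higher at D13, 136 were called higher at D7 and 103 at D19. Of the 1159 genes lower at D13, 465 were called lower at D7 and 394 at D19. Calls in the opposite direction were few, 3 and 9 at D7 and 4 and 11 at D19 for genes higher and lower at D13. The v2 explants of day 19 against the v1 explants of day 19, a difference of medium within 1 system at another day, had 218 genes (1.13%) higher and 330 (1.71%) lower, with 5 of the 306 and 54 of the 1159 called the same way and 9 and 41 the opposite way.

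The difference at D13 minus that at D7 was itself called for 451 genes (2.34%), 132 higher and 319 lower. The count was 272 without D7 explant 1, 288 without D13 explant 2, 284 and 240 without D7 assembloids 1 and 2, and 252 without D13 assembloid 2. Macrophage genes were called lower at all 3 days, 13 of 14 at D7, D13 and D19 alike, and 7 of the 14 had a more negative difference at D13 than at D7, beside 1.66% of all genes. C1qc differed by -3.62 at D7, -5.61 at D13 and -4.88 at D19, and the change from D7 to D13 was -1.996 ± 0.29 (adjusted p = 0.000103). C1qc signal was 11 and 11.8 in the D7 v1 explants and 49.4 and 48.4 in the D13 v1 explants, and in the assembloids it stayed at or under 0.059 at both days. Upk3a took the opposite courses in the systems. In the assembloids it stood at 17.1 and 25.8 at D3 and 8.21 and 8.62 at D7, then 0.0535 and 0.177 at D13, and in the v1 explants at 8.13 and 10.6, 54 and 56 and 116 and 89.4. Its difference went from -2.58 to -6.58, a change of -4.005 ± 0.50 (adjusted p = 3.15e-05).

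Several epithelial genes that were lower at D13 were not called lower at D7. Ctse and Sprr1a both differed by -0.04 at D7, and Sprr2f, Gsdmc2 and Gsdmc3 were higher in the assembloids then, by 1.24, 1.54 and 1.93. Krt19 changed from -0.25 to -2.71, a change of -2.46 ± 0.43 (adjusted p = 0.00243). Podxl and Myh11 went the other way: Podxl differed by -3.01 at D7, with a change of 1.89 ± 0.45 (adjusted p = 0.0233), and Myh11 by -3.86, with a change of 2.15 ± 0.43 (adjusted p = 0.00697). Grm4, a metabotropic glutamate receptor, and Cntnap5b, a contactin-associated protein, had the largest positive changes among genes named by the rule, which leaves out ribosomal protein genes, at 3.18 ± 0.32 (adjusted p = 3.01e-07) and 3.18 ± 0.32 (adjusted p = 3.01e-07), from differences of -2.63 and -5.99 at D7. Kap was not called at D7 and was called higher at D13, a change of 1.91 ± 0.46 (adjusted p = 0.0157). With 1 library left out at a time, the change of Podxl was not called in 5 of 8 fits and that of Kap in 5 of 8.

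**Figure D4:**
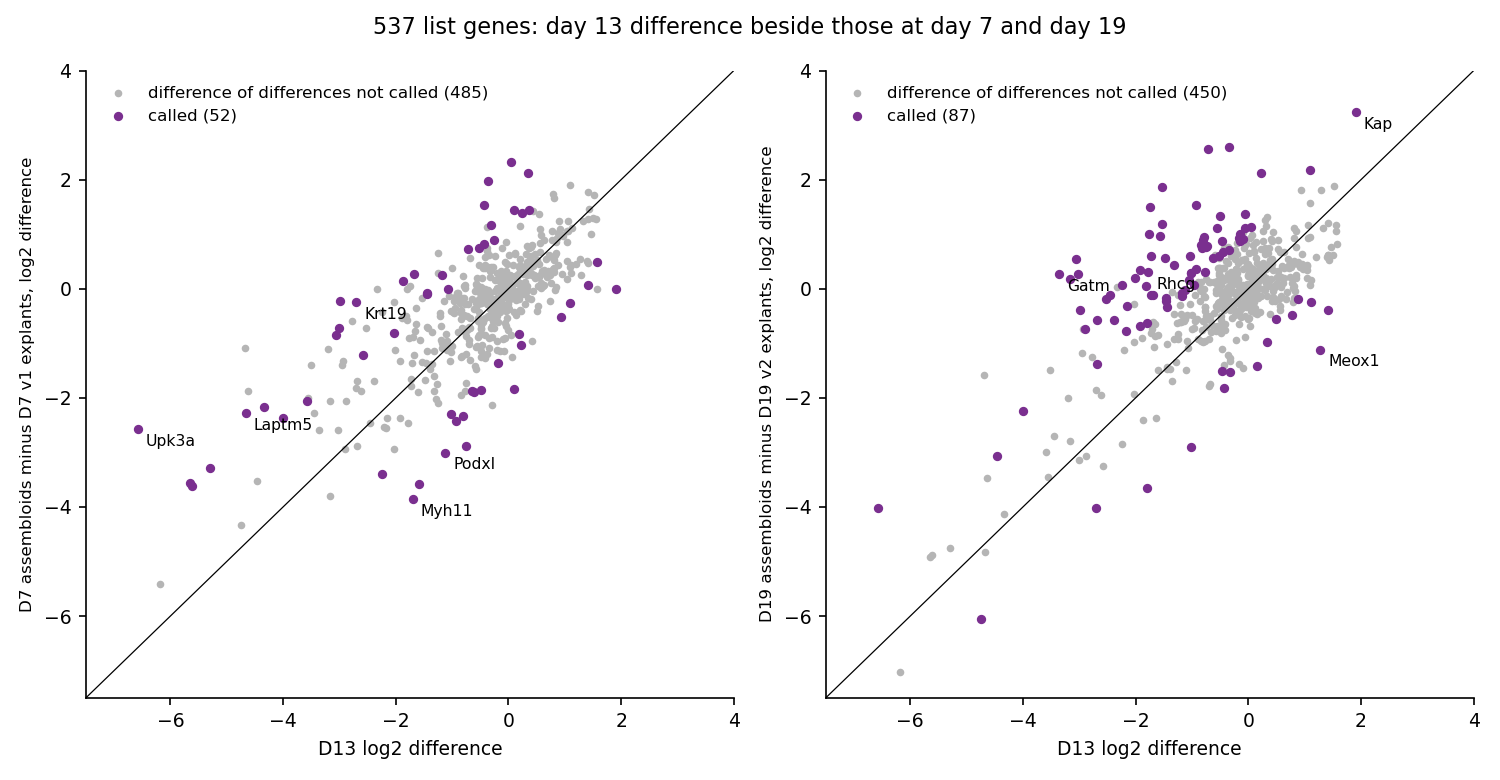
Log2 differences of the 537 tested list genes at D13 (x axes) beside those of D7 assembloids against D7 v1 explants (left, y axis) and D19 assembloids against D19 v2 explants (right, y axis); the line marks equal differences and purple points mark genes whose difference of differences was called. At left 52 genes are purple, among them Upk3a and Krt19 above the line and Podxl and Myh11 below it, and at right 87, among them Gatm and Rhcg above the line and Meox1 below it.

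Against the day 19 comparison in the same medium, 1105 genes (5.74%) had a different difference at D13, 275 more positive and 830 more negative. The count was 725 without D13 explant 2. Of the 48 lists, the 4 with the highest shares of more negative members at D13 were the intercalated cell list with 12 of 14, the loop list with 8 of 12, the proximal tubule list with 12 of 28 and the endothelial list with 6 of 15, beside 4.31% of all genes. The distal tubule list had 3 of 10, the principal cell list 2 of 12, and the ureteric trunk and collecting duct list 1 of 14. At D19, 0 of 12 loop genes were called in limma in either direction and 6 had an unadjusted p under 0.05. In the D19 assembloids 6 of 14 intercalated and 6 of 28 proximal genes were called higher. Within the D19 explants, 11 of 28 proximal, 0 of 14 intercalated and 1 of 12 loop genes were called lower in v2 than in v1. None of these lists had a member called higher in v2. Slc12a1 stood at 0.309 and 0.1 in the D7 assembloids, 0.535 and 1.59 in the D13 assembloids, and 58.3 and 64.3 and 117 and 93.6 in the D19 assembloid sets r1 and r2. In the v1 explants it stood at 19.4 and 11.9, 14 and 19.8 and 49.2 and 63.9 at the same days. Its difference was -3.17 at D13 and 0.18 at D19, a change of -3.35 ± 0.64 (adjusted p = 0.00188). Umod and Gatm followed the same pattern, with changes of -3.59 ± 0.36 (adjusted p = 3.37e-07) and -3.62 ± 0.28 (adjusted p = 2.26e-09).

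**Figure D5:**
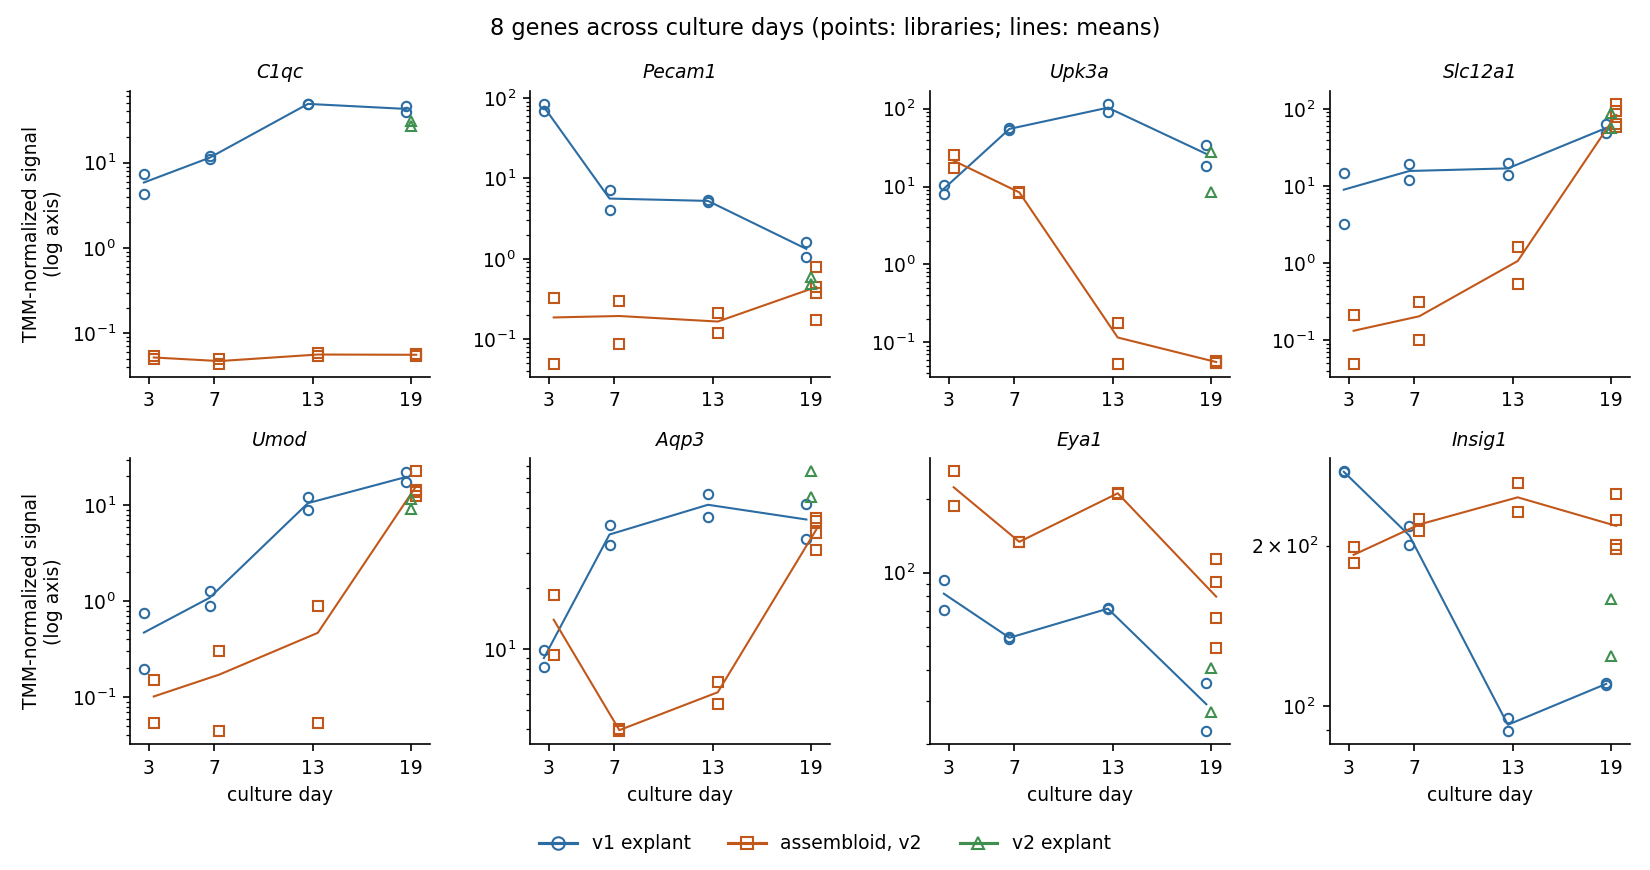
TMM-normalized signal (y axes, log scale) of 8 genes over culture days 3, 7, 13 and 19 in v1 explants (blue circles), v2 assembloids (orange squares, 4 libraries at D19) and v2 explants (green triangles, D19); lines join means. C1qc lies at the lowest value in assembloids at every day, Upk3a in the assembloids lies at 0.0535 and 0.177 at D13, and Slc12a1, Umod and Aqp3 in the assembloids lie among or near the explant values at D19.

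Rhcg differed by -1.78 at D13 and 0.30 at D19, a change of -2.08 ± 0.30 (adjusted p = 6.48e-05), and Slc4a9 turned from -1.75 to 1.50. Aqp3 stood at 6.9 and 5.31 in D13 and at 37.4 and 30.8 and 44.2 and 43.2 in D19 assembloids, with a change in its difference of -2.15 ± 0.34 (adjusted p = 0.000203). Pecam1 differed by -0.11 at D19, where the v2 explants themselves stood at 0.491 and 0.594. Slc34a1, not called at D13, was higher in the D19 assembloids (2.61) and had a change of -2.95 ± 0.34 (adjusted p = 6.2e-06), and it was also lower in D19 v2 than in D19 v1 explants (-3.11). Meox1 was higher at D13 and lower at D19 (-1.11), a change of 2.39 ± 0.42 (adjusted p = 0.000568), while Eya1 was higher at both days (1.17 at D19). Day and explant medium both differ between the D13 and D19 comparisons, so their shares cannot be told apart. Ddx3y in the assembloids and the Rn18s-rs5 share of the explants also differed between these comparisons, and their part was not tested.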

How the data were processed

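Bulk RNA was sequenced from 34 mouse libraries, 2 per group. Per the submitters' processing notes, STAR 2.7.8a and Partek were used and the builds mm39 and mm10 are named; table coordinates fit mm39, since of 22685 genes shared with a GRCm38 annotation 589 had the same start within 1 base. How reads were counted, which genes were kept and whether strand was used is not stated in the labels, and overlapping and antisense genes may share reads. The values deposited by the authors are a TMM-normalized signal, not counts, and 88.9 to 94.5% of the values up to 20 steps per library were whole multiples of the lowest value within 0.1 step, too few to recover reads. Implied depth was 7772347 to 28459391 steps over all libraries, and floors of 3 steps cover counting error only. The table held 0 columns of other samples.

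Signals were tested as log2(value + 0.962), the pseudocount being 1 ppm of the median column total, which understates the differences of low genes. Genes at or above it in 2 samples were kept. One fit with 17 group means over 34 samples used limma 3.58.1 (trend, robust; R 4.3.3), leaving 17 residual degrees of freedom. The D19 assembloid value is the mean of sets r1 and r2. In a fit without 1 library, the remaining sample of its group is taken to vary as the others do. On simulated data of the D13 design with 19264 genes, 66% of 50 genes changed 2-fold, 98% of those changed 3-fold or 4-fold and 100% of those changed 8-fold were called, with 5 of 19064 unchanged genes. Replicate numbers did not pair the samples (correlation of deviations -0.05).

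Members and lists were chosen with earlier results of these data known. Genes were named as the 12 largest called in each direction with an assigned symbol (no Gm, Rik or ribosomal protein genes) whose higher group averaged 10 times the pseudocount or more, up to 4 per list, a fixed set of 18 markers, and the 6 largest in each direction of each test between days by the same filters. Other list members, Ddx3y and the ribosomal protein group were named after their values were seen. Some genes that these rules name are not reported here. Promoter windows come from RefSeq (GRCm38.p6) and matched 394 of 576 genes; the PU.1 motif and a sterol motif were added after the values were seen. Alternatives were another pseudocount, filter, scaling, moderation, threshold, sample set, replicate block and leaving out each library.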

Additional observations from a re-analysis of the deposited data

Results flagged for a closer look

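For 33 genes named above, the D13 difference itself differed from the D7 assembloid minus D7 v1 explant difference, in limma with Benjamini-Hochberg adjustment over all genes. Given as the change on the log2 scale, the D13 difference was more negative for Cym (-7.267), Gsdmc3 (-5.360), Ctse (-5.071), Gsdmc2 (-4.833), Sprr2f (-4.700), Sprr1a (-4.554), Upk3a (-4.005), Iqsec3 (-2.939), Krt19 (-2.456), Foxa1 (-2.290), Umod (-2.199), Upk1b (-2.182), C1qa (-2.099), Fos (-2.010), C1qb (-2.005), C1qc (-1.996), Stab1 (-1.660), Cx3cr1 (-1.642), Ctss (-1.533), Junb (-1.353), Krt7 (-1.230) and Wnt4 (-1.074). It was more positive for Grm4 (3.177), Cntnap5b (3.176), Myh11 (2.154), Kap (1.908), Podxl (1.885), Dpep1 (1.664), Sp5 (1.353), Insig1 (1.337), Kdr (1.274), Thsd7a (1.152) and Tgfbi (1.085). With 1 library left out at a time, 21 of the 33 were called in every fit. Of the 8 fits, the change was not called for Wnt4 in 8, Sp5 in 7, Cx3cr1, Iqsec3 and Upk1b in 6, Kap, Podxl and Tgfbi in 5, Thsd7a in 4, Junb in 3, Fos in 2 and Krt7 in 1.

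For 49 genes named above, the D13 difference itself differed from the D19 assembloid minus D19 v2 explant difference, in limma with Benjamini-Hochberg adjustment over all genes. Given as the change on the log2 scale, the D13 difference was more negative for Cym (-5.879), Iqsec3 (-4.185), Gatm (-3.619), Umod (-3.592), Slc12a1 (-3.352), Slc4a9 (-3.258), Slc34a1 (-2.952), Dlk1 (-2.764), Cntnap5b (-2.680), Upk3a (-2.561), Pecam1 (-2.348), Tmem52b (-2.329), Chga (-2.308), Kcnj1 (-2.268), Aqp3 (-2.147), Fabp4 (-2.119), Rhcg (-2.083), Bsnd (-2.040), Gpnmb (-1.918), Irx1 (-1.876), Tie1 (-1.845), Slc12a3 (-1.829), Meg3 (-1.818), Cx3cr1 (-1.771), Ass1 (-1.750), Kdr (-1.630), Csf1r (-1.385), Trf (-1.355), Kap (-1.333), Nr4a3 (-1.304), Mt2 (-1.292), Car2 (-1.240), Bmp2 (-1.161), Mal (-1.110) and Sp5 (-1.090). It was more positive for Rn7s1 (5.696), Rn18s-rs5 (4.018), Ubb (3.375), Meox1 (2.385), Cp (2.175), Krt15 (1.884), Grm4 (1.852), Slco4c1 (1.813), Ren1 (1.562), Dpep1 (1.426), Fgf9 (1.366), Mrc1 (1.320), Aqp4 (1.315) and Trp63 (1.031). With 1 library left out at a time, 35 of the 49 were called in every fit. Of the 10 fits, the change was not called for Ubb in 10, Irx1 in 9, Sp5 and Trp63 in 8, Ren1 in 7, Kap in 6, Mt2 and Nr4a3 in 4, Aqp4, Bmp2, Rn7s1 and Trf in 3 and Chga and Gpnmb in 2.

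No weighing of causes was made for these genes. The D7 comparison holds medium and system as at D13, while the D19 comparison differs from D13 in day and in explant medium. Other readings differed too. Explant 1 of D13 differed from both D7 v1 explants in Xist and Ddx3y. Ddx3y stood at 6.63 and 5.43 in the D13 assembloids and at 0.0576, 0.0537, 0.0559 and 0.0561 in the D19 assembloids. Rn18s-rs5 took 0.142 and 0.295% of the signal in the D13 v1 explants and 2.80 and 4.32% in the D19 v2 explants. The part of these in the changes was not tested.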

How the results depend on the processing

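Of the 306 genes called higher and 1159 called lower, the counts were 90 and 237 with a pseudocount 10 times as large, and 27 and 262 when limma tested against a log2 difference of 1. The lower count was 760 with a filter at 10 times the pseudocount, which tests fewer genes (13487). With 1 library left out at a time, the counts were 276 to 330 higher and 1021 to 1225 lower. Equal column totals gave 216 and 1365 and moved the median log2 difference of all genes from 0.02 to -0.08, and quantile normalization gave 421 and 948. The D13 minus D7 count of 451 was 112 with the larger pseudocount, 28 against a difference of 1, and 240 to 454 with 1 library left out. The D13 minus D19 count of 1105 was 225, 35 and 725 to 1362 in the same order. Other settings kept each of these counts within 1.5 times. The cause of these moves was not tested, apart from the fewer genes that the filter leaves. The replicate number as a block gave 305 and 1158 genes, 436 for D13 minus D7 and 1112 for D13 minus D19, and with only the 4 D13 libraries the block gave 312 and 1146. Replicate numbers mark no stated pairing, and the correlation of deviations was -0.05. Of the 112 named genes called at D13, the call was lost for 44 with the larger pseudocount, 66 against a difference of 1, 7 with a pseudocount 0.1 times as large, 7 with equal totals, 9 with quantile normalization, 2 with cultured samples only, 4 with only the 4 D13 libraries and 0 with the block, and no sign turned in any of these. The 4 calls lost with only the 4 D13 libraries were those of Ahcy, Cym, H2-Eb1 and Hsd3b1. Values of 1 step carry no more than a floor at this depth.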

Other observations

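Lists not described so far had few calls, to be read beside the 1.59% higher and 6.02% lower of all genes tested. Of 5 tested adipocyte genes 2 were called lower: Pparg, the nuclear receptor that directs fat cell formation, stood at 1.55 and 2.77 in the assembloids and 17 and 18.9 in the explants, a log2 difference of -2.62 ± 0.27 (SE, adjusted p = 4.04e-08), and Fabp4, a fatty acid binding protein of fat cells and capillary endothelium, at 0.214 and 0.059 in the assembloids and 5.91 and 6.36 in the explants, a log2 difference of -2.69 ± 0.35 (SE, adjusted p = 2.44e-06). Both explants lay above both assembloids. Of 6 tested cartilage genes, Col11a1, a fibrillar collagen, was the 1 called, and it was lower (-1.68). Of 8 tested skeletal muscle genes, Tnni1, a slow troponin, was the 1 called, and it was higher, at 9.89 and 8.38 in the assembloids and 2.81 and 2.54 in the explants, a log2 difference of 1.47 ± 0.26 (SE, adjusted p = 0.000124).

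Among response genes, Mt2, a metallothionein, was the 1 of 10 glucocorticoid-response genes called, at 7.86 and 8.44 in the assembloids and 24.3 and 23.6 in the explants, a log2 difference of -1.45 ± 0.28 (SE, adjusted p = 0.000473). Nr4a3, an orphan nuclear receptor, was the 1 of 8 cAMP-response genes called (-1.01), and Egln3, an oxygen-sensing prolyl hydroxylase, the 1 of 12 hypoxia and glycolysis genes (-1.21), all 3 of them lower. Nr4a3 was not called without explant 1 (-0.98) or without assembloid 1 (-0.86). In the p53, unfolded protein, Hedgehog, and cyst and cilium lists 0 of 7, 0 of 9, 0 of 8 and 0 of 9 tested genes were called in limma, with 3, 4, 3 and 4 genes at an unadjusted p under 0.05. Pkd1 and Pkd2, the genes mutated in dominant polycystic kidney disease, differed by -0.13 ± 0.13 (adjusted p = 0.471) and 0.18 ± 0.10 (adjusted p = 0.177). A sterol regulatory element, searched on both strands, was in 0 of the 3 called sterol synthesis genes with a promoter window and in 0.234% of all promoters.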
